A study of Mus musculus with 6 samples.

Results

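Glycolysis, glucose transport and glycogen turnover were followed through 33 genes in the hearts of Mc4r KO and WT mice. The genes were listed by symbol for their roles, by a rule that holds no measured value, although earlier results of these data were known. The table holds them in 34 of its 54532 rows, because Aldoa stands on 2 gene identifiers. Of these, 33 rows, for 32 symbols, reached a mean FPKM of at least 0.1 and were tested. Aldoc did not, with values from 0 to 0.197 FPKM.

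The 6 mice were males of 12 weeks, 3 homozygous Mc4r knockouts (Mc4r-/-) and 3 WT littermates, and each gave 1 library. All came from matings of heterozygous parents on the C57B/6/N background, and no second allele is named for either genotype. The only drugs named for the mice are anesthetics, isoflurane for echocardiography and tribromoethanol before the hearts were taken. Mc4r encodes the melanocortin-4 receptor, a receptor of the brain that restrains feeding, and mice without it become obese. The whole animal lacked the gene, not the heart alone. The tissue is named heart in 2 label fields and muscle in the titles, and the study also speaks of the left ventricle. The 10 cardiomyocyte markers were all present, with Myh6 between 2231 and 3082 FPKM. Of 13 skeletal muscle genes, Myog, Myf5 and Myh4 stood at 0 in all 6 libraries. Acta1 had 49.7 to 554.7 FPKM and Ckm, which is also on the cardiomyocyte list, had 305.8 to 403.7 FPKM. Mylpf reached 1.115 FPKM, and the rest of that list stayed under 1 FPKM. Mc4r itself gave 2 reads in WT replicate 3 and none elsewhere, so these reads could not check the genotypes.

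Glucose is carried into heart muscle by the transporters GLUT4, which moves to the cell surface in response to insulin, and GLUT1, which depends little on insulin. Hexokinase traps it as glucose 6-phosphate, which either runs down glycolysis to pyruvate and lactate or is stored as glycogen. The adult heart burns mainly fatty acids, keeps a store of glycogen, and uses muscle isoenzymes at most steps of the pathway.

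FPKM, the unit of the deposited values, counts fragments relative to transcript length and a scale for each library, so levels of different genes can be compared. Median-of-ratios factors of the deposited values were 1 in each library, so the libraries were already on a common scale by that measure. Reads on genes numbered 14767929 to 16047003 in the WT libraries and 14691076 to 15649074 in the Mc4r KO libraries. WT replicate 3 stood apart. The chi-square of its reads against those of the other WT libraries was 50.04 and 56.3 per gene, compared with 17 between WT replicates 1 and 2 and with 11.7 to 13.9 among the Mc4r KO libraries. Its mitochondrial transcripts made up 47.1% of the summed FPKM, close to the 43.0% to 46.6% of the Mc4r KO libraries, whereas the other WT libraries had 57.4% and 59.3%. Results are therefore given with and without it.

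Many genes of the pathway had somewhat higher values in the Mc4r KO hearts, by an amount that depended on the scaling. The 3 Mc4r KO values lay above the 3 WT values for 18 of the 33 members tested, which is 54.55%, compared with 14.1% of all genes tested. They lay below the WT values for 1 member, Gapdh, compared with 12.4% of all genes, and the groups overlapped for the other 14 members. The differences were small. The median of the log2 fold changes was 0.24 over the members and -0.01 over all 18035 genes tested, and 28 members had a positive value, compared with 48.76% of all genes. The members with a positive value numbered 22 under quantile normalization and 18 when libraries were scaled to the FPKM sum outside the mitochondrial chromosome. In limma on log2(FPKM + 0.1), a scale that understates changes of low genes, 16 members were higher at an unadjusted p under 0.05 (12.0% of all genes) and 1 was lower (8.83% of all genes). After Benjamini-Hochberg adjustment over all genes, 2 members had an adjusted p under 0.05, Phka1 and Gys1, compared with 0.582% of all genes. Genes with such a p were called if the log2 fold change also exceeded 0.75 in size, and Phka1 alone met both conditions, compared with 0.460% of all genes.

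**Figure D1:**
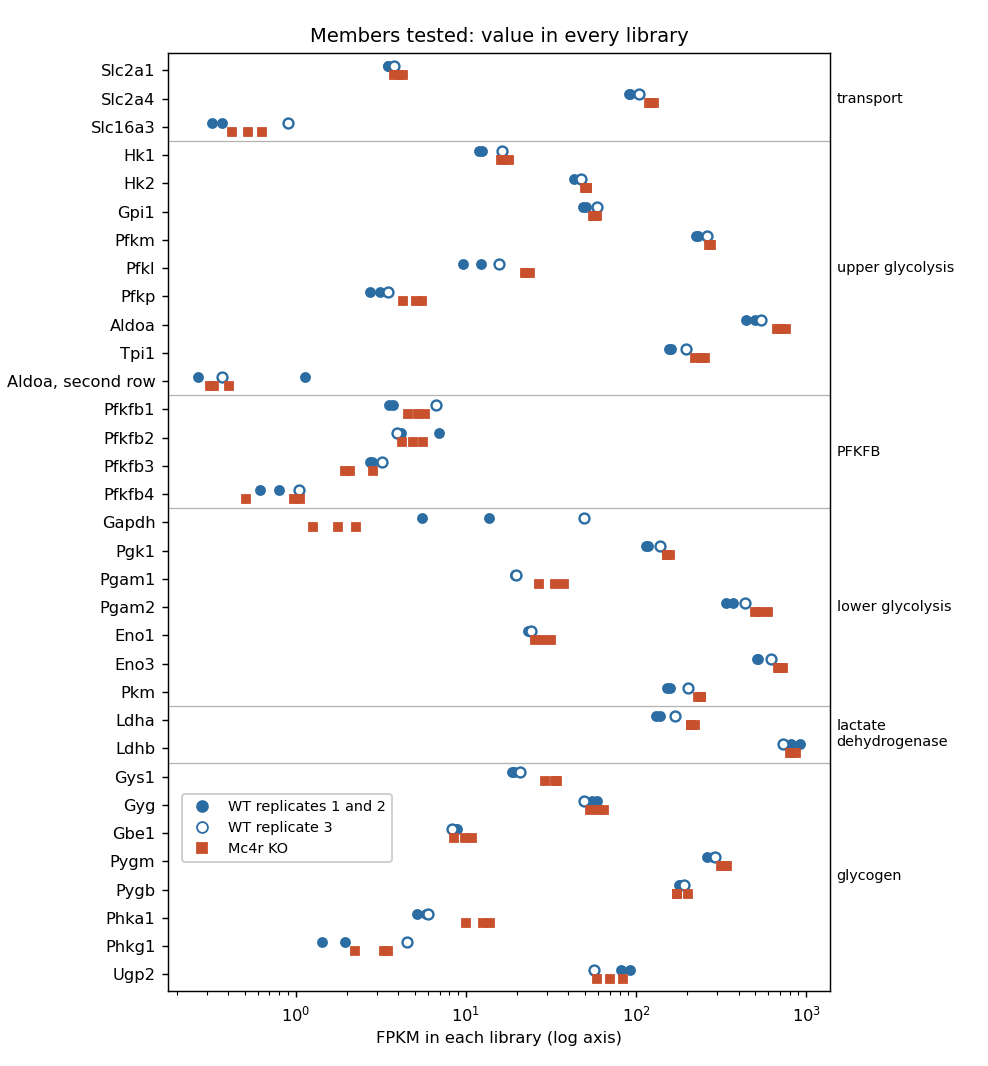
FPKM of the 33 members tested in each of the 6 libraries, on a log axis, grouped by role. Filled circles are WT replicates 1 and 2, the open circle is WT replicate 3 and squares are the 3 Mc4r KO libraries; in 18 members the squares lie to the right of all circles (13 under either other scaling), and in Gapdh they lie to the left.

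The calls depended on single libraries, above all on WT replicate 3. In each of the 18 members that were higher without overlap, that library was the highest of the 3 WT libraries, as it was in 57.33% of the 2538 such genes overall. Without it, 15 members had an adjusted p under 0.05 (10.3% of all genes) and 4 were called (4.04% of all genes): Phka1, Pfkl and Gys1 were higher and Gapdh was lower. Without any one of the other 5 libraries limma called no member, with 13 to 16 members at an unadjusted p under 0.05. At that p stood 2517 to 2949 of the 17935 to 18080 genes tested in these fits. Limma voom on the recovered reads gave 12 members with an adjusted p under 0.05 (4.58% of all genes) and 3 calls (1.76% of all genes), Phka1, Pfkl and Gapdh.

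The size of the members' shift depended on the scaling between libraries. Dividing by the FPKM sum outside the mitochondrial chromosome moved the median of all genes to -0.19 and that of the members to 0.05, so the members lay 0.24 above all genes, compared with 0.25 with the FPKM as deposited. Under the non-mitochondrial scaling 13 members were higher without overlap (6.42% of all genes) and Gapdh, Pygb and Pfkfb3 were lower (22.3%). Quantile normalization also left 13 higher (12.6%) and 2 lower (12.4%).

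**Figure D2:**
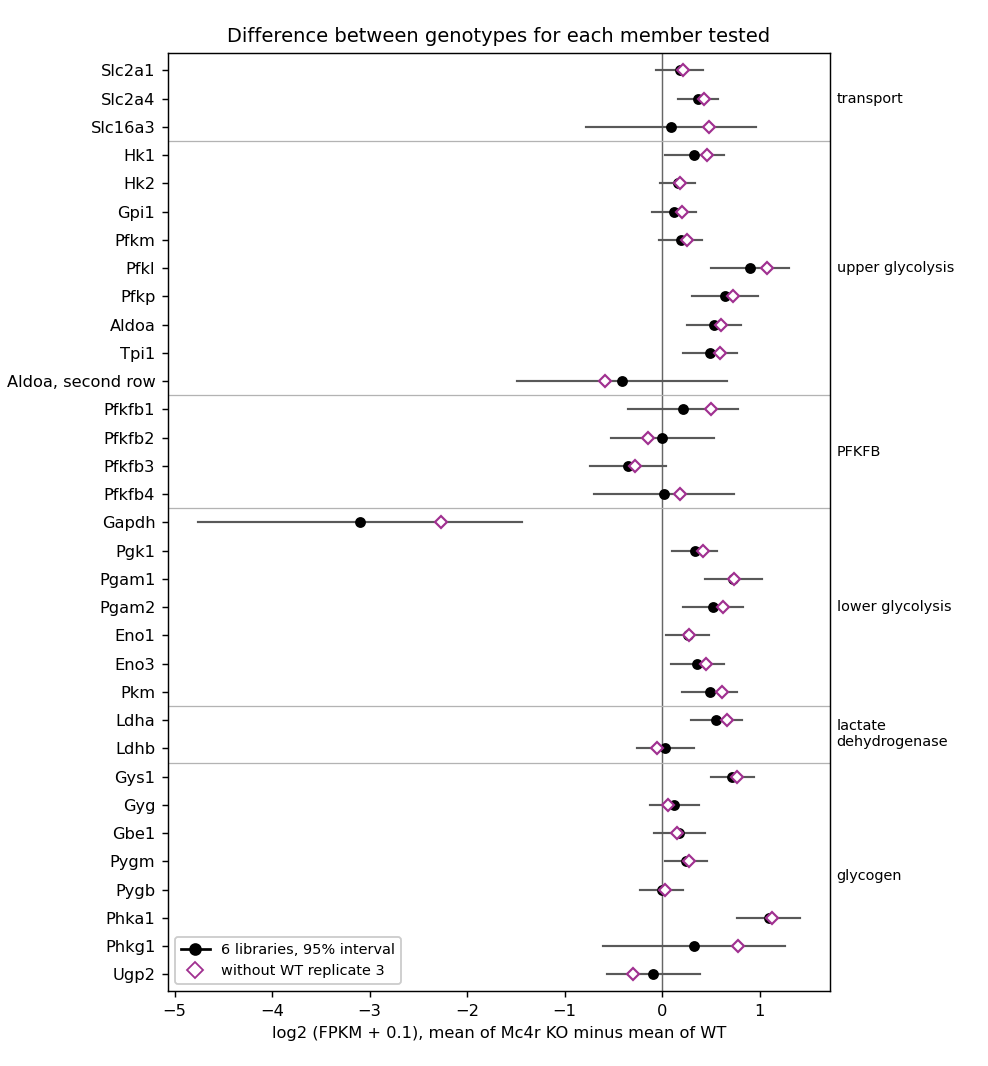
Difference of mean log2(FPKM + 0.1), Mc4r KO minus WT, for each member tested, with its 95% interval from limma (black), and the same difference without WT replicate 3 (open diamonds). Most points lie between 0 and 1 on the log2 scale, Phka1 has the highest at 1.09, and Gapdh lies at -3.10.

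Promoters are shown for the 4 members with the smallest p, since the clearest differences of the pathway were in these genes. RefSeq windows on GRCm38.p6, from 250 bases before to 50 after the start site, were found for 32 of the 33 symbols. Hypoxia-inducible factors, which switch on many genes of glycolysis, bind DNA around a short core, searched here as ACGTG or GCGTG on both strands. The Phka1 window is chrX:102644197-102644496 on the minus strand. The Gys1 window is chr7:45434589-45434888 on the plus strand. The Pgam1 window is chr19:41911621-41911920 on the plus strand. The Pfkl window is chr10:78009758-78010057 on the minus strand. Capitals mark the core, which reads CACGT or CACGC where it lies on the opposite strand.
Phka1: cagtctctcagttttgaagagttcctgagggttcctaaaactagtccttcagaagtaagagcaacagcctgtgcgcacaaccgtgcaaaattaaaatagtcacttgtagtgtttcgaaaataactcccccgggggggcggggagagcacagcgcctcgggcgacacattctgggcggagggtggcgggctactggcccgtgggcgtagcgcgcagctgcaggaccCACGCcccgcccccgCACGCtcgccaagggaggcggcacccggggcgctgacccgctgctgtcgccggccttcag
Gys1: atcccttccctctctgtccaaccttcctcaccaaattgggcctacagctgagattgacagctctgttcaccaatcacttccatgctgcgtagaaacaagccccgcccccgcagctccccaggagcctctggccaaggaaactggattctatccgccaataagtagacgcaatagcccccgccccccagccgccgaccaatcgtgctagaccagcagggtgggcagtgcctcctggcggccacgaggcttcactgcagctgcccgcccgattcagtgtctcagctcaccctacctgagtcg
Pgam1: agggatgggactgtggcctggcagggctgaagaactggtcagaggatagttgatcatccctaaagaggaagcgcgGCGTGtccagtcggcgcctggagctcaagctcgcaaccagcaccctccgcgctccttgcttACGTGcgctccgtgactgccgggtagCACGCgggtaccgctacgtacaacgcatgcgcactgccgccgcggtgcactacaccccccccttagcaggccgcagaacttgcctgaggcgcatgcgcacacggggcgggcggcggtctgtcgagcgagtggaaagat
Pfkl: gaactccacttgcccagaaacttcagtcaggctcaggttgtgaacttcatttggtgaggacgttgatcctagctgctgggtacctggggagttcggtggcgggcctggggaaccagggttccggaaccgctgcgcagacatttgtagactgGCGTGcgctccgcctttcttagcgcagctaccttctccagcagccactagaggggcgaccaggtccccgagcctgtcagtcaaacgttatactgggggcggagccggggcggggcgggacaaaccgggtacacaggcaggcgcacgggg

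The Phka1 window held 2 matches, that of Pgam1 held 3, that of Pfkl held 1 and that of Gys1 had 0. Either core was in the windows of 22 of the 32 members found, or 68.8%, compared with 43.8% of the windows of 27025 genes. The E-box CACGTG, which contains ACGTG, was in 3 of the 32 (9.38%) and in 7.24% of all. The member windows were also richer in G and C, with a median of 58% compared with 52.7%, and the part of this in the count of matches was not tested. A match is only a string of letters in the window.

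In the transport step, both glucose transporters were higher in the Mc4r KO hearts, except that Slc2a1 had a log2 fold change of -0.01 when scaled to the FPKM sum outside the mitochondrial chromosome. Slc2a4, which encodes GLUT4, stood at 91.7, 91 and 103 FPKM in WT replicates 1, 2 and 3 and at 118.5, 128 and 122 FPKM in Mc4r KO replicates 1, 2 and 3. Slc2a1, which encodes GLUT1, stood at 3.48, 3.495 and 3.75 FPKM in WT and at 4.12, 4.28 and 3.79 FPKM in Mc4r KO. The groups did not overlap for either gene, although for Slc2a1 the nearest libraries were almost level. The log2 fold change was 0.37 ± 0.09 (SE) for Slc2a4 (limma, adjusted p = 0.0983) and 0.18 ± 0.10 for Slc2a1 (adjusted p = 0.369). Slc2a4 accounted for 96.3% to 97% of the FPKM of the pair in every library. Slc16a3, which encodes the lactate exporter MCT4, was near the bottom of the range, with 0.53 ± 0.33 FPKM in WT and 0.52 ± 0.10 in Mc4r KO (SD, n = 3). Without WT replicate 3, the adjusted p of Slc2a4 was 0.0199.

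At the hexokinase step the isoenzyme typical of muscle prevailed, and neither gene differed past the threshold in the full fit. Hk2 had 46.7, 43.1 and 47.2 FPKM in WT and 49.8, 51.6 and 51.4 FPKM in Mc4r KO, with a narrow gap between the groups that closed under both other scalings, where the log2 fold change was -0.04 and -0.0026. Hk1, the form found in most tissues, had 12, 12.4 and 16.3 FPKM in WT and 16.1, 16.7 and 17.9 FPKM in Mc4r KO. WT replicate 3 lay within the Mc4r KO range for Hk1, and without it the log2 fold change went from 0.33 to 0.46 (limma, adjusted p = 0.216 and 0.0248). Gpi1, which turns glucose 6-phosphate into fructose 6-phosphate, had 52.8 ± 5.62 FPKM in WT and 57.1 ± 1.76 in Mc4r KO (SD, n = 3), and its groups overlapped.

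Phosphofructokinase is the committed step of glycolysis, and its minor subunits had larger log2 fold changes than the muscle subunit. Pfkm, the muscle subunit, had 224.5, 232 and 261 FPKM in WT and 269, 270.2 and 276 FPKM in Mc4r KO. Pfkl, the liver subunit, had 9.55, 12.3 and 15.7 FPKM in WT and 22.9, 23.7 and 22.1 FPKM in Mc4r KO. Pfkp, the platelet subunit, had 2.74, 3.11 and 3.505 FPKM in WT and 5.06, 5.49 and 4.24 FPKM in Mc4r KO. In all 3 the groups were apart, except for Pfkm under both other scalings, where its log2 fold change was -0.04 and -0.01, and WT replicate 3 was the WT library nearest to the Mc4r KO values. The log2 fold changes were 0.90 ± 0.17 (SE) for Pfkl, 0.64 ± 0.14 for Pfkp and 0.19 ± 0.09 for Pfkm, with adjusted p-values of 0.0666, 0.0871 and 0.306 in limma. Without WT replicate 3, Pfkl had a log2 fold change of 1.07 and an adjusted p of 0.00988. Pfkm still made up 90.3% to 91.3% of the phosphofructokinase FPKM in Mc4r KO, compared with 93.2% to 94.8% in WT. Of the exon bases of Pfkm, 10.21% also belong to Gm26513 on the same strand, and exons of Pitrm1, a neighbour on the opposite strand, cover 5.58% of Pfkp.

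The PFKFB genes encode the enzymes that make and remove fructose 2,6-bisphosphate, the activator of phosphofructokinase, and in none of the 4 were the groups apart. Pfkfb1 had 4.64 ± 1.75 FPKM in WT and 5.18 ± 0.58 in Mc4r KO (SD, n = 3). Pfkfb2, the heart form, had 5.02 ± 1.69 in WT and 4.89 ± 0.66 in Mc4r KO, and 17.4% of its exon bases also belong to Gm29427 on the same strand. Pfkfb4 had 0.82 ± 0.22 and 0.85 ± 0.29 FPKM. Pfkfb3, the form induced by low oxygen, had the largest difference of the 4, with 2.28 ± 0.48 FPKM in Mc4r KO and 2.91 ± 0.26 in WT, a log2 fold change of -0.35 ± 0.17 (SE) and an adjusted p of 0.279 in limma.

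Aldolase and triose phosphate isomerase, which split the sugar and interconvert the pieces, had higher values in all 3 Mc4r KO libraries. Aldoa had 443, 501 and 545 FPKM in WT and 711, 764 and 671.5 FPKM in Mc4r KO. Tpi1 had 155.6, 159.7 and 196 FPKM in WT and 239, 255 and 221 FPKM in Mc4r KO. Both were expressed at high levels, and the Mc4r KO mean was 1.44 times the WT mean for Aldoa and 1.40 times for Tpi1. The log2 fold changes were 0.53 ± 0.12 (SE) and 0.49 ± 0.12, with adjusted p-values of 0.0897 and 0.0996 in limma. The second Aldoa identifier, beside the main gene, had 0.589 ± 0.474 FPKM in WT and 0.348 ± 0.048 in Mc4r KO (SD, n = 3).

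In lower glycolysis, where ATP is made, 6 of the 7 members tested were higher without overlap, compared with 14.1% of all genes. Of the 6, Eno1 overlapped under both other scalings and Pgk1 under quantile normalization. Pgk1, which encodes the first enzyme to make ATP, had 114, 117 and 138 FPKM in WT and 152.8, 158.5 and 152.5 FPKM in Mc4r KO. Pgam2, the muscle phosphoglycerate mutase, had 336, 371.5 and 436 FPKM in WT and 532, 599.5 and 501.5 FPKM in Mc4r KO. Pgam1, the form of other tissues, had 19.4, 19.4 and 19.7 FPKM in WT and 33.2, 37.6 and 27 FPKM in Mc4r KO. The 3 WT libraries were nearly level for Pgam1, including WT replicate 3, and its log2 fold change was 0.73 ± 0.12 (SE) with an adjusted p of 0.0579 in limma. Those of Pgk1 and Pgam2 were 0.33 ± 0.10 and 0.52 ± 0.13, with adjusted p-values of 0.132 and 0.106.

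The enolases and pyruvate kinase gave the same order of the groups. Eno3, the muscle enolase, had 512, 523 and 617 FPKM in WT and 698, 729 and 685 FPKM in Mc4r KO. Eno1, the enolase of most other cells, had 23.2, 23.7 and 24 FPKM in WT and 28.2, 31.5 and 25.6 FPKM in Mc4r KO. Pkm, which encodes the pyruvate kinase of muscle, had 152.7, 157.6 and 201 FPKM in WT and 229.7, 240 and 241 FPKM in Mc4r KO. All 3 were apart between the groups in the FPKM as deposited, with log2 fold changes of 0.36 ± 0.11 (SE), 0.26 ± 0.09 and 0.48 ± 0.12 and adjusted p-values of 0.148, 0.188 and 0.104 in limma. Without WT replicate 3 the adjusted p-values of Eno3 and Pkm were 0.0243 and 0.00951, and that of Eno1 was 0.144. For Eno1 the gap closed under quantile normalization, non-mitochondrial scaling and GC trend removal, where the log2 fold change was 0.14, 0.07 and 0.06. The copies of these genes matter for reading them: 53.88% of the 50-base words of Pgk1, 36.16% of those of Pgam1, 25.99% of those of Eno1 and 25.77% of those of Pkm also occur in other genes, and 15.34% of the exon bases of Pkm also belong to Gm49759. Reads assigned to the copies numbered at most 26 in a library for Pgam1-ps2 and Pgk1-rs7, and 85 to 157 for the Pkm pseudogene Gm6560. The Eno1 copies Eno1b and Gm4735 had 30 to 50 and 8 to 33. These counts do not show how reads that match more than 1 gene were assigned or left out, and this was not tested.

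Gapdh, which encodes the enzyme between triose phosphate isomerase and phosphoglycerate kinase, had the groups in the opposite order from its neighbours. It had 13.6, 5.49 and 49.2 FPKM in WT and 1.78, 1.26 and 2.26 FPKM in Mc4r KO. Every Mc4r KO library was below every WT library, and the WT values themselves spread over a wide range, with WT replicate 3 the highest. The log2 fold change was -3.10 ± 0.71 (SE), with an adjusted p of 0.0919 in limma, and without WT replicate 3 it was -2.27 with an adjusted p of 0.0279. Gapdh was called in 3 of 20 alternative fits, and its levels were far below those of Tpi1 and Pgk1, the steps on either side. This gene has many copies, and 25.12% of its 50-base words occur in 223 other genes. Gm7336, a processed pseudogene that shares 24.6% of them, had 169, 119 and 219 reads in WT and 249, 261 and 248 in Mc4r KO, the opposite order. Gapdh had 793, 326 and 3466 reads in WT and 114, 79 and 150 in Mc4r KO. The part of reads shared between the copies in the difference was not tested. The study also measured Gapdh by RT-qPCR, where the decrease in Mc4r KO was far smaller than in its RNA-seq. The reason for that gap was not tested.

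**Figure D3:**
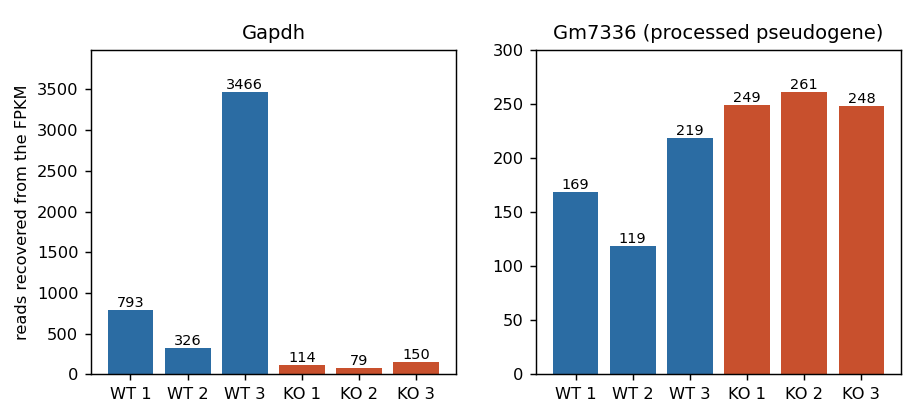
Reads in each library on Gapdh (left) and on the processed pseudogene Gm7336 (right), on separate linear axes that start at 0, with WT in blue and Mc4r KO in orange. Gapdh ran from 79 to 150 reads in Mc4r KO and from 326 to 3466 in WT, whereas Gm7336 had more reads in each Mc4r KO library than in any WT library.

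Lactate dehydrogenase joins pyruvate and lactate, and the groups were apart for 1 of its 2 subunit genes. Ldha, the subunit of skeletal muscle, had 139, 131 and 168 FPKM in WT and 209.6, 221 and 209.8 FPKM in Mc4r KO. Ldhb, the heart subunit, had 819.9 ± 95.5 FPKM in WT and 834 ± 31.8 in Mc4r KO (SD, n = 3). The groups were apart for Ldha and overlapped for Ldhb, which was the most abundant of all the members. The log2 fold change was 0.56 ± 0.11 (SE) for Ldha (limma, adjusted p = 0.0754) and 0.03 ± 0.12 for Ldhb (adjusted p = 0.92), with a 95% interval from -0.26 to 0.32 for the latter. Without WT replicate 3 the adjusted p of Ldha was 0.00859. Of the 50-base words of Ldhb, 20.99% also occur in Gm5514, which had 6 to 24 reads.

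In glycogen metabolism, the member with the clearest difference was a regulator. Phka1 encodes the muscle alpha subunit of phosphorylase kinase, the enzyme that activates glycogen phosphorylase. The gene (ENSMUSG00000034055) lies on chromosome X from 102513975 to 102644246. Phka1 had 5.14, 5.79 and 5.95 FPKM in WT and 10.1, 13.9 and 12.6 FPKM in Mc4r KO. The lowest Mc4r KO library was well above the highest WT library, and WT replicate 3 lay with the other WT libraries. Phka1 rose by 1.09 ± 0.14 (SE) on the log2 scale, with an adjusted p of 0.0355 in limma, and the mean in Mc4r KO was 2.16 times that in WT. None of its 50-base words occurs in another gene. Of the 20 alternative fits, 11 called it and in 9 the adjusted p missed the threshold, among them the fits without any one library other than WT replicate 3, with log2 fold changes from 0.90 to 1.22 and adjusted p-values from 0.00363 to 0.146.

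Gys1, which encodes the glycogen synthase of muscle and heart, was the other member past the adjusted threshold. The gene (ENSMUSG00000003865) lies on chromosome 7 from 45434844 to 45456619, and exons of Ruvbl2 on the opposite strand cover 6.47% of it. Gys1 had 19.2, 18.7 and 20.8 FPKM in WT and 29.2, 34.3 and 33.1 FPKM in Mc4r KO. The groups were far apart compared with the spread within each. The log2 fold change of Gys1 was 0.72 ± 0.09 (SE), with an adjusted p of 0.0396 in limma, just short of the fold needed for a call. It had an adjusted p under 0.05 in 10 of the 20 alternative fits, over which the adjusted p ran from 0.00601 to 0.154.

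**Figure D4:**
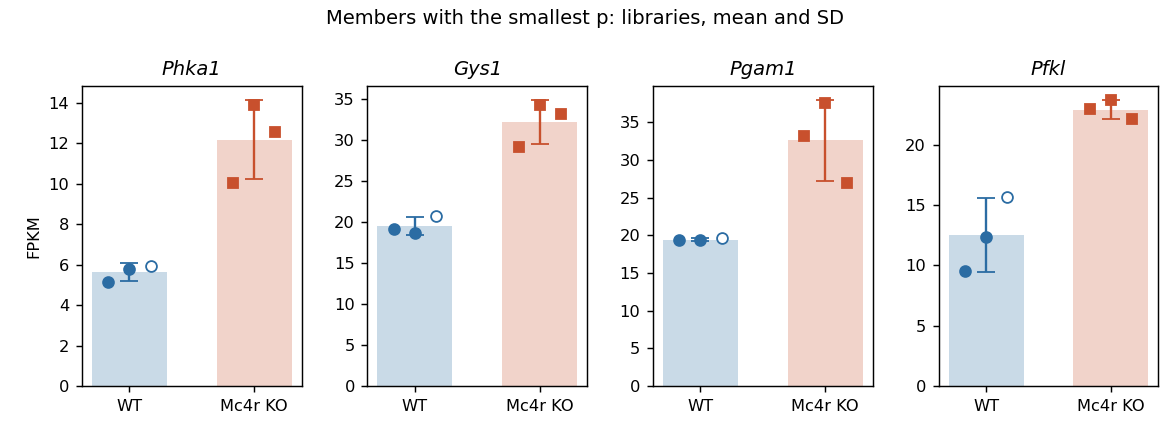
FPKM in each library for the 4 members with the smallest p, Phka1, Gys1, Pgam1 and Pfkl, with bars for the mean and error bars for the SD (n = 3); the open circle is WT replicate 3. In all 4 panels the 3 Mc4r KO libraries lie above the 3 WT libraries.

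The other glycogen genes differed less. Pygm, the glycogen phosphorylase of muscle, had 262, 284 and 292 FPKM in WT and 316, 331 and 343 FPKM in Mc4r KO, apart by a narrow gap, with a log2 fold change of 0.24 ± 0.09 (SE) and an adjusted p of 0.2 in limma. The gap of Pygm closed under quantile normalization and non-mitochondrial scaling, where the log2 fold change was 0.0016 and 0.05. Pygb, the brain phosphorylase, had 184 ± 7.57 FPKM in WT and 183 ± 15.9 in Mc4r KO (SD, n = 3), and its groups overlapped. Gyg, which encodes glycogenin, the protein that primes a glycogen particle, had 54.7 ± 4.77 and 59.6 ± 5.64 FPKM. Gbe1, the branching enzyme, had 8.60 ± 0.32 FPKM in WT and 9.77 ± 1.22 in Mc4r KO. Ugp2, which makes the UDP-glucose used by glycogen synthase, had 76.5 ± 18.2 and 71.0 ± 12.4 FPKM. Phkg1, the catalytic subunit that works with Phka1 in muscle, had 2.63 ± 1.64 and 3.00 ± 0.68 FPKM, and 9.68% of its exon bases lie opposite Sumf2. For all 5 of these the groups overlapped, and the adjusted p was between 0.417 and 0.982 in limma.

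Ratios of isoenzymes within a library do not depend on the scaling between libraries, and 8 of 9 planned ratios could be tested, Aldoc being too low. An exact permutation test of 3 against 3 cannot give a two-sided p under 0.1. The groups were apart in 5 of the 8 ratios, each with an exact p of 0.1, the smallest possible, and 0.16 after adjustment over the 8. Pfkl to Pfkm was 0.0519 ± 0.0088 in WT and 0.0844 ± 0.0038 in Mc4r KO (SD, n = 3). Ldha to Ldhb was 0.170, 0.143 and 0.232 in WT and 0.261, 0.267 and 0.242 in Mc4r KO. In this ratio WT replicate 3 lay nearer to the Mc4r KO libraries than to the other WT libraries. Pfkp to Pfkm went from a mean of 0.013 in WT to 0.0182 in Mc4r KO. Pygb to Pygm was lower in Mc4r KO, 0.555 ± 0.032 compared with 0.659 ± 0.019, as was Slc2a1 to Slc2a4, 0.0331 ± 0.0018 compared with 0.0375 ± 0.0011. The ratios Hk2 to Hk1, Pgam2 to Pgam1 and Eno1 to Eno3 overlapped, with exact p-values from 0.2 to 0.3.

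**Figure D5:**
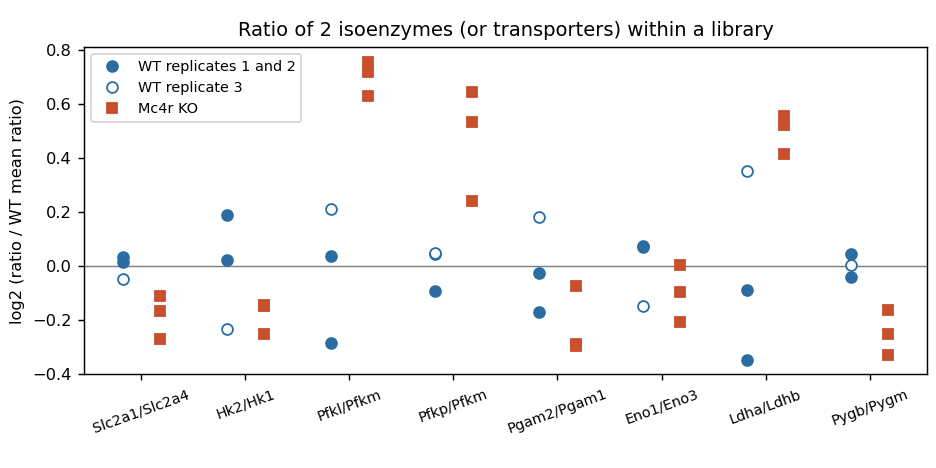
FPKM ratio of 2 genes of one step within each library, as log2 of the ratio divided by the mean WT ratio. Circles are WT (open, replicate 3) and squares are Mc4r KO; the squares lie above the circles for Pfkl/Pfkm, Pfkp/Pfkm and Ldha/Ldhb and below them for Slc2a1/Slc2a4 and Pygb/Pygm.

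Other genes of the same pathways were read from the same fit. Of 26 further genes of glycolysis and glucose handling, 20 were tested and limma called 0, with 3 higher and 1 lower at an unadjusted p under 0.05. Of 18 further glycogen genes, 17 were tested, with 0 called and 3 higher and 0 lower at that p. Of 11 genes of the pentose phosphate pathway, which branches off at glucose 6-phosphate, all were tested, with 0 called and 2 higher and 1 lower. Over all genes tested, 12.0% were higher and 8.83% lower at that p, so the counts in these lists lie near the background. The medians of the log2 fold changes in the 3 lists were 0.16, 0.04 and 0.14.

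Of the 6 of these with the smallest p, 5 are named. Slc16a7, which encodes the monocarboxylate transporter MCT2, had 0.988, 0.847 and 0.808 FPKM in WT and 0.403, 0.261 and 0.311 in Mc4r KO, lower in every Mc4r KO library, with a log2 fold change of -1.22 ± 0.22 (SE) and an adjusted p of 0.0647 in limma. Limma voom called Slc16a7 and none of the other 4 named, which had smaller differences. The log2 fold changes were 0.48 for Pgd and 0.28 for Taldo1, both enzymes of the pentose phosphate pathway, and -0.41 for Prps2, which makes the precursor of nucleotides from its product. Ppp1r3d, which guides a phosphatase to glycogen, had 0.48. Their groups did not overlap, and the adjusted p-values of these 4 genes lay between 0.121 and 0.154.

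Of the summed lists of cell type markers, only those of cardiomyocytes and fibroblasts were apart between the genotypes. The log2 fold change also had a trend with base composition. The summed FPKM of the 10 cardiomyocyte markers was 15100 to 16440 in WT and 18330 to 20020 in Mc4r KO, mostly through Actc1. Of the 10, 3 were higher without overlap, compared with 14.1% of all genes. The groups overlapped for the others. Among these, Myh6, Myl3, Mybpc3, Tnnt2 and Ckm had log2 fold changes of 0.12 to 0.25, and Pln and Tnni3 had -0.33 and -0.005. In bulk tissue, fewer cells of a type and less RNA per cell cannot be told apart. After each library was divided by the geometric mean of the 10 cardiomyocyte markers, an alternative chosen after seeing the data, 7 members stayed higher without overlap (5.26% of all genes): Aldoa, Ldha, Pgam1, Gys1, Pfkl, Phka1 and Pfkp. Gapdh and Pfkfb3 were then lower (25.2% of all genes). The summed fibroblast list ran from 185 to 189 FPKM in WT and from 136 to 155 in Mc4r KO. Of its 6 genes 3 were lower without overlap (12.4% of all genes): Dcn, the most abundant, Lum and Pdgfra. Col1a1 had a log2 fold change of 0.44 and Col1a2 of 0.03. The erythrocyte list ran from 859.8 to 6345 FPKM in WT and from 620.4 to 1652 in Mc4r KO, and the 6 atrial genes from 29.2 to 825 and from 6.60 to 140.2, both highest in WT replicate 3. The summed endothelial, macrophage and adipocyte lists overlapped between the genotypes. Even so, 3 of the 6 macrophage genes, Csf1r, Mrc1 and Cd68, were lower without overlap (12.4% of all genes). C1qa, the most abundant of the macrophage list, had a log2 fold change of 0.63. The part of these lists in the members' differences was not tested. The median GC content was 53.45% for the members and 49.54% for all genes tested, and the trend of the log2 fold change along GC content stood at a median of 0.11 at the members' values. Removal of the GC trend of each library covered only the 30 members whose mean FPKM reached 1. Their median log2 fold change was 0.29 before the removal and 0.22 after it. With the trend removed, 15 of these 30 members were higher without overlap, compared with 17.1% of all genes in that fit.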

How the data were processed

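Polyadenylated RNA from 6 hearts was sequenced in read pairs on an Illumina instrument after NEBNext library preparation. The submitters' processing notes name CASAVA, HISAT2 2.0.5 and the build mm10, and the study's methods name featureCounts for the counting. Which annotation release was counted, and whether strand was used, is not given in the sources used here. The authors deposited FPKM per gene and library, with the length and position of each gene. Multiplied by length and divided by 1 constant per library, 100% of the FPKM came out whole (tolerance 0.05), which gave back the reads. Of the gene identifiers, 99.9% are in GENCODE M21.

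Median-of-ratios factors computed from the FPKM were 1 in each library, so the alternative without scaling repeated the full fit. Because FPKM are not counts, limma 3.58.1 (R 4.3.3) with the empirical Bayes trend was fitted to log2(FPKM + 0.1) for genes whose mean FPKM reached 0.1, two-sided, with Benjamini-Hochberg adjustment over all of them. The 3 WT and 3 Mc4r KO libraries entered without covariates. The fit was tested on simulated data. Isoenzyme ratios were compared with the exact permutation test. Words of 50 bases and exon overlaps were taken from the M21 transcripts, and figures were drawn with matplotlib 3.10.9 in Python 3.11.15.

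The members, the companion lists and the marker lists were chosen with earlier results of these data known. Values in every library are printed for members whose groups did not overlap and for those with an adjusted p under 0.05 in the full fit or without 1 library. The other members are given by means and counts, and of the companion lists the 6 genes with the smallest p were taken, of which 1 is not reported here. The alternatives were pseudocounts of 1 and 0.01, 2 other filters, no scaling, quantile and non-mitochondrial scaling, fits without trend, robust or with weighted libraries, a block for the replicate number, limma voom on the recovered reads, protein-coding genes only and each library left out. The GC trend removal and the division by cardiomyocyte markers were added after seeing the data.

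For a 1 kb gene, 3 reads amounted to 0.176 to 0.213 FPKM, a limit that covers counting error only.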

Additional observations from a re-analysis of the deposited data

How the results depend on the processing

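With 3 mice per genotype, the number of calls moved far more with the processing than the fold changes did, and the causes were not tested. Limma called 83 genes in all, 1 member and 0 companion genes in the full fit, with 2 members at an adjusted p under 0.05. Leaving out 1 library gave 7 to 726 genes, 0 to 4 members and 0 to 1 companion genes called, and 0 to 15 members at an adjusted p under 0.05, each highest without WT replicate 3. The median log2 fold change of the members then ran from 0.19 to 0.42. In these fits 18 to 23 members were higher without overlap, compared with 17.1% to 22.3% of all genes. Those lower without overlap numbered 1 to 2, compared with 15.9% to 22.7% of all genes. Calls over all genes numbered 44 with a pseudocount of 1, 22 without a filter, 147 with a mean FPKM of at least 1, 49 with quantile normalization, 41 with non-mitochondrial scaling, 21 without the trend, 435 with array weights, 317 with limma voom and 204 with protein-coding genes only. No member was called, and 0 had an adjusted p under 0.05, without a filter, with non-mitochondrial scaling and without the trend. In these fits 16, 12 and 14 members had an unadjusted p under 0.05. Among all genes tested, 4007 of 26539, 4158 of 18048 and 3264 of 18035 did. Members called, then those at an adjusted p under 0.05, were 2 and 4 with the higher filter and 2 and 12 with array weights. They were 3 and 12 with limma voom and 3 and 7 with protein-coding genes only, and quantile normalization left 1 at that p. Genes tested numbered 11297 with the higher filter, 13546 with protein-coding genes only and 18035 with array weights and limma voom. At that p stood 4.58% of all genes with limma voom, and this share was not counted for the other fits of this comparison. Companion calls were 1 with array weights, 2 with limma voom and 1 with protein-coding genes only. No pairing by replicate number was seen in the libraries' deviations from their group means. Those of same-numbered libraries correlated at -0.141, 0.00735 and -0.0818, and no WT library correlated best with the Mc4r KO library of its number. So few correlations cannot show that the mice were unpaired. With the replicate block, 11 genes and 0 members were called and 0 members had an adjusted p under 0.05. An unadjusted p under 0.05 was reached by 17 members and by 3444 of all 18035 genes tested. The share of higher genes among the calls was 68.7% in the full fit and 39% with non-mitochondrial scaling. Under that scaling the members' median was 0.0464 and 3 members were lower without overlap (22.3% of all genes). Quantile normalization gave 2 such members (12.4% of all genes), and division by the cardiomyocyte markers 7 higher (5.26%) and 2 lower (25.2%).

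Changes of sign were seen for members with small or variable differences, among them Phkg1 (0.32 in the full fit) and the second Aldoa identifier (-0.42), both without WT replicate 2. Under quantile normalization the log2 fold change was -0.14 for Ldhb, -0.0352 for Pfkm, -0.0564 for Gyg, -0.0488 for Gpi1, -0.0026 for Hk2 and -0.0299 for Pfkfb2. Under non-mitochondrial scaling it was -0.17 for Ldhb, -0.0088 for Pfkm, -0.0722 for Gyg, -0.0774 for Gpi1, -0.0384 for Hk2, -0.0177 for Gbe1, -0.19 for Pfkfb2, -0.0125 for Slc2a1, -0.16 for Pfkfb4 and -0.0685 for Slc16a3. Array weights gave -0.0337 for Ldhb and 0.0075 for Pygb, GC trend removal -0.0755 for Ldhb and 0.11 for Ugp2, a pseudocount of 1 -0.0028 for Pfkfb2, and limma voom -0.0171 for Pfkfb4. Leaving out 1 library gave ranges of -0.0543 to 0.11 for Ldhb, -0.077 to 0.0319 for Pygb, -0.30 to 0.0538 for Ugp2, -0.14 to 0.26 for Pfkfb2, -0.0131 to 0.78 for Phkg1, -0.16 to 0.30 for Pfkfb4, -0.15 to 0.48 for Slc16a3 and -0.77 to 0.11 for the second Aldoa identifier. Phka1, Gys1, Pfkl, Pgam1 and the other members named with an adjusted p under 0.05 in any fit kept their sign in every alternative. The 8 isoenzyme ratios kept their direction with each library left out and with the replicate block. At this depth the limits lie in the low members: Aldoc, Slc16a3, Pfkfb4 and the second Aldoa identifier.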
